A study of Mus musculus with 21 samples.

Results

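The collagen genes are taken here as the protein-coding genes of the mouse genome (mm10) whose symbol is Col, a number, a and a number, from Col1a1 to Col28a1. The rule found 44 of 21627 protein-coding genes, and every one is accounted for below. The study mapped where estrogen receptor alpha (ERα), a nuclear receptor for estradiol, sits on chromatin, using ChIP-seq, which sequences the DNA that an antibody (here sc543) pulls down. The mice were CD-1 animals of 10 weeks. The groups were vWAT given estradiol (4 libraries), vWAT given vehicle (2), and scWAT (3), BAT (1) and Liver (2) given estradiol; the labels name no other genotype or agent, and the abbreviations stand as the labels give them. Neither the dose, route and timing of estradiol nor the sex of the mice is given in the sources used here, nor whether each library is a separate animal. Libraries of H3K27ac and of RNA from vWAT are named in the labels and were not used here, so no expression level stands beside any peak.

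Collagens are proteins with a triple helix of 3 chains, each chain encoded by its own gene, and they make up most of the extracellular matrix. Fibril-forming collagens give tissue its tensile strength, type IV collagens form the sheet of the basement membrane, type VI collagens form beaded filaments, and smaller classes coat fibrils, form hexagonal networks or span the cell membrane. In fat, each adipocyte is wrapped in a basement membrane and type VI collagen is an abundant part of the matrix, most of which is made by stromal fibroblasts and adipocyte progenitors. ERα bound to estradiol attaches to DNA, often at enhancers far from gene starts, so a peak near a gene is a place where the receptor was found and not a measure of the gene's output.

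Each group had 1 deposited peak list, of 20715 peaks in estradiol-treated vWAT, 7400 in vehicle-treated vWAT, 17971 in scWAT, 5193 in BAT and 21411 in Liver. No spread between animals can be had from them, so every comparison below is a description without a test. Read depth is unknown here, and list length can rise with the number and depth of the libraries behind it. A peak was counted for a gene when its summit lay inside the gene's span or within 25 kb of it, and a peak in reach of several genes counted for each. Collagen genes span 7.11 to 420 kb (median 114 kb, against 17.3 kb over all protein-coding genes), so each was also set beside the genes of like span, those with a span within 1.2 times its own. These comparison sets held 211 to 2230 genes. Enrichment is the authors' fold value of a peak and is ranked only within a list. Where values of several lists are given for the same place, they are not a comparison of binding strength. Intervals are 95% Wilson intervals, which cover counting error over genes or peaks alone.

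In vWAT with estradiol, 35 of the 44 collagen genes had at least 1 ERα peak (79.5%, 65.5 to 88.8), beside 61.5% of all protein-coding genes and 71.9% of genes of like span. The vehicle list reached 19 collagen genes (43.2%, 29.7 to 57.8), beside 44.8% of all genes and 47.9% of like-span genes. The scWAT list reached 33 (75.0%, 60.6 to 85.4), beside 61.0% and 69.6%, and the Liver list 34 (77.3%, 63.0 to 87.2), beside 67.5% and 79.9%. BAT stood lowest, with 7 collagen genes (15.9%, 7.93 to 29.4) beside 29.7% of all genes and 35.8% of like-span genes. Collagen genes therefore lay above like-span genes in both white fat lists with estradiol and below them in the other lists, and in every list except BAT the like-span share fell inside the interval. This order depended on the window. Within 5 kb, vWAT with estradiol reached 25 genes (56.8%, against 61.4% of like-span genes) and scWAT 17 (38.6%, against 57.7%), both below their background. Inside the span alone, scWAT reached 15 (34.1%, against 44.7%). Within 100 kb, scWAT reached 37 (84.1%, against 85.9%), and vehicle turned the other way with 33 (75.0%, against 68.9%). The peaks come from whole tissue, so a receptor bound in few cells and one bound weakly in many cannot be told apart.

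The number of peaks separated the lists further than the number of genes. Summed over the 44 genes, vWAT with estradiol had 109 peaks, where like-span genes would have had 86.8 on average, a ratio of 1.26. The sum was 82 against 73.1 in scWAT (1.12), 69 against 82.9 in Liver (0.833), 23 against 31.1 in vehicle (0.739) and 7 against 20.6 in BAT (0.340). A few long runs of peaks carried part of the surplus: without Col5a1 and Col5a3 the ratio was 1.12 in vWAT with estradiol and 0.987 in scWAT, below 1. Close to the genes it was also smaller, at 1.09 in vWAT with estradiol and 0.929 in scWAT for peaks inside the span or within 5 kb. Per 100 kb of span and flanks, the median collagen gene held 1.60 vWAT estradiol peaks, against 1.24 over all genes and 0.998 over like-span genes; counted within 5 kb, the order turned, with 0.789 against 1.02 over like-span genes. At least 3 vWAT estradiol peaks were found at 18 collagen genes (40.9%), beside 19.0% of all genes and 29.0% of like-span genes.

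**Figure D1:**
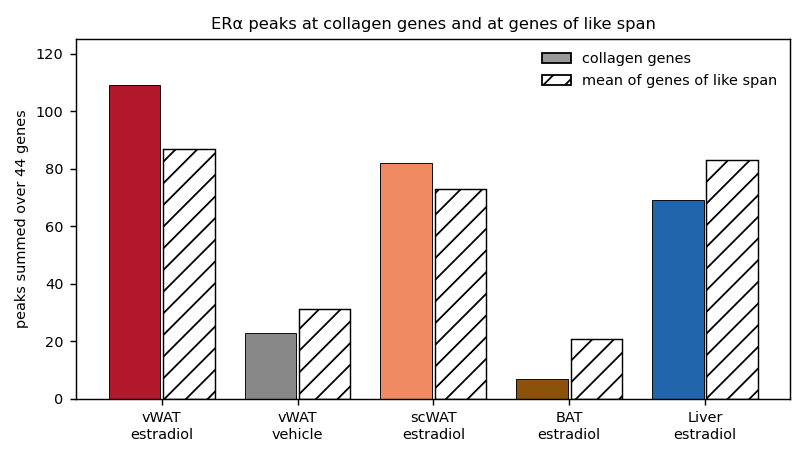
ERα peaks summed over the 44 collagen genes (filled bars) and the sum expected from the mean of protein-coding genes of like span (hatched bars), in each of the 5 peak lists; the y axis is the number of peaks and there are no error bars, since each group has 1 list. The filled bar is the taller in vWAT and scWAT with estradiol (109 against 86.8 and 82 against 73.1) and the shorter in vehicle, BAT and Liver.

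Raw counts depend on list length, so all lists were also held to their 5193 peaks of lowest p-value, the length of the BAT list. At that size 18 collagen genes had a peak in vWAT with estradiol, beside 33.8% of like-span genes, and 19 in scWAT, beside 32.9%. Vehicle reached 10 (37.7% of like-span genes), Liver 11 (37.5%) and BAT 7 (35.8%). The ratio of summed peaks to like-span genes was then 1.43 in vWAT with estradiol, 1.26 in scWAT, 0.661 in Liver, 0.512 in vehicle and 0.340 in BAT. By this ratio both estradiol-treated white fats stood above the other 3 lists, with or without equal length. Collagen genes had fewer neighbours in their windows, a mean of 1.25 other protein-coding genes against 1.49 for like-span genes and 1.92 for all genes, and the part of neighbours in these counts was not tested.

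Within vWAT, the collagen peaks of the estradiol list were mostly absent from the vehicle list. Of 106 distinct peaks 90 overlapped no vehicle peak by even 1 bp (84.9%, 76.9 to 90.5), against 77.3% of the whole list and 73.8% of its peaks near any protein-coding gene. With both lists held to 5193 peaks, 25 of 30 collagen peaks were absent from vehicle (83.3%), against 56.3% of the whole list. In the full lists, the 90 peaks absent from vehicle reached 31 of the 44 genes (70.5%), beside 46.2% of all genes and 60.0% of like-span genes. More estradiol than vehicle peaks were counted at 29 collagen genes, beside 40.4% of all genes and 54.1% of like-span genes. The vehicle list came from 2 libraries and the estradiol list from 4, and the part of that difference was not tested.

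Peaks held with vehicle lay at gene ends more often than those found with estradiol alone, near collagen genes as over the whole list. Among the 16 held peaks, 8 lay within 1 kb of an end of a neighbouring gene (Nt5dc1, Phykpl, Hnrnpab, Cmss1, Slc39a7, Znhit6, Trappc3 and Pef1), where 62.4% of all held peaks and 69.2% of those near any gene did. Of the 90 found with estradiol alone, 6 did (6.67%), against 12.8% over the whole list and 17.1% of those near any gene. Another 2 held peaks lay inside a collagen gene (Col2a1 and Col4a2). Held peaks reached 15 collagen genes, beside 34.9% of all genes and 34.2% of like-span genes. Away from all gene ends, 84 of 92 collagen peaks were absent from vehicle (91.3%, 83.8 to 95.5), against 88.3% of such peaks near any gene, while at gene ends it was 6 of 14. These 84 peaks reached 28 collagen genes, beside 35.4% of all genes and 52.9% of like-span genes, and their summed count of 86 stood at 1.46 times the like-span value of 58.7. Inside the collagen spans themselves 62 of 64 peaks were absent from vehicle (96.9%, 89.3 to 99.1), none of them at a gene end. The share was 78.1% inside any protein-coding span, and 88.9% there away from gene ends.

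**Figure D2:**
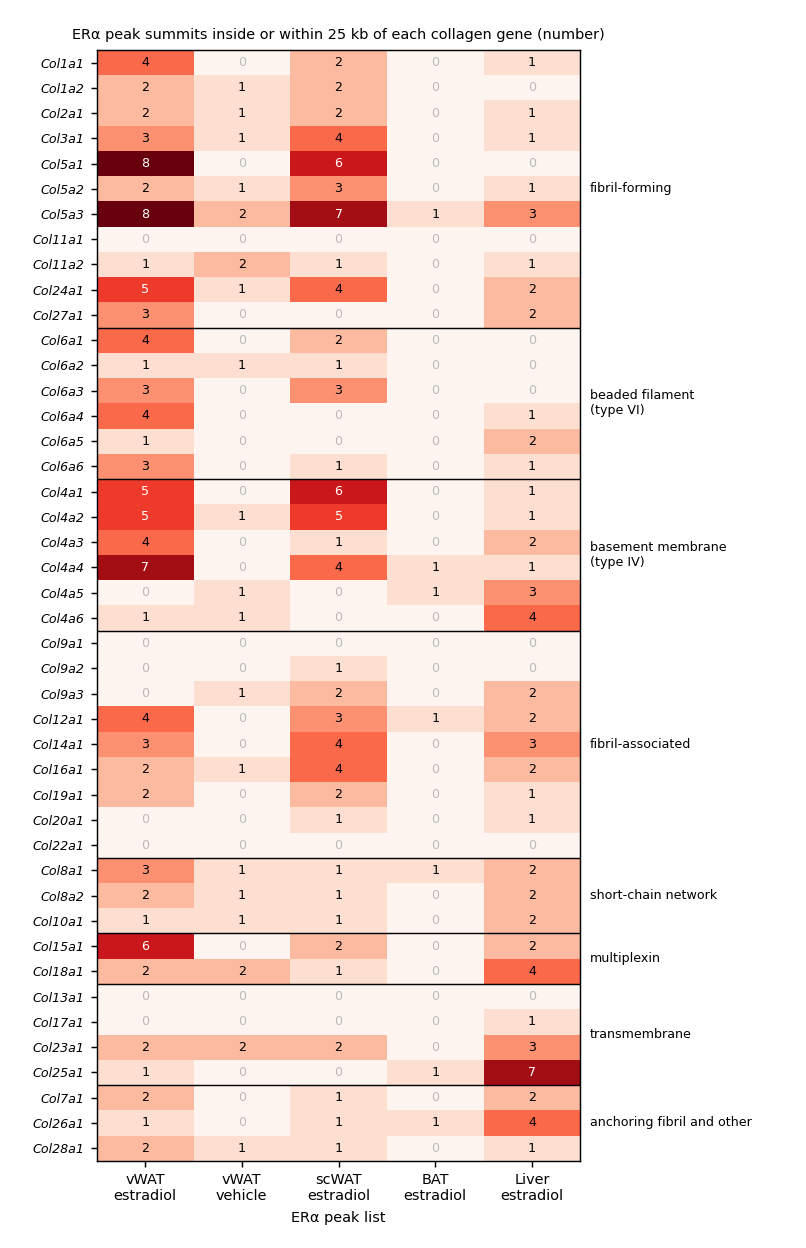
Number of ERα peak summits inside or within 25 kb of each of the 44 collagen genes (rows, ordered by class) in each of the 5 peak lists (columns); darker cells hold more peaks. Col5a1 and Col5a3 each have 8 peaks in vWAT with estradiol, the transmembrane collagen gene Col25a1 has 7 in Liver, and the rows of Col9a1, Col11a1, Col13a1 and Col22a1 are empty.

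The 11 fibril-forming genes carried 37 of the 106 vWAT estradiol peaks. Of the 11 genes 10 were reached, beside 61.5% of all genes and 71.9% of genes of like span to all 44 members. Their summed count of 38 compares with 20.1 for like-span genes, and Col5a1 and Col5a3 gave 8 each of the 38. In Liver the same genes had 12 peaks, against 19.4. Col5a1 encodes a chain of type V collagen, which sits inside type I fibrils and limits their diameter. It had 8 peaks in vWAT with estradiol, 6 in scWAT, and none in vehicle, BAT or Liver. All 8 vWAT peaks lay inside the 153 kb span (chr2:27886381-28039510, plus strand), between 2.60 and 138 kb from the start, and the nearest other protein-coding gene was at least 52.0 kb from any of them. The strongest lay at chr2:27906911-27907578, 20.8 kb into the gene, with a 9.44-fold enrichment, and the next had 9.25, 8.58 and 7.39. Each of these 4 overlapped a scWAT peak. As many vWAT estradiol peaks were found at 3.40% of genes of like span. Such shares, here and below, are given for members picked for their counts and are descriptions alone.

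Col5a3 encodes another chain of type V collagen and is the most densely bound member, with 8.42 vWAT estradiol peaks per 100 kb. It had 8 peaks in vWAT with estradiol, 2 in vehicle, 7 in scWAT, 1 in BAT and 3 in Liver. Of 1716 genes of like span, 5 (0.291%) had as many in vWAT with estradiol. The strongest vWAT peak (10.3-fold, chr9:20760612-20761306) lay 9.13 kb beyond the downstream end of the gene and overlapped peaks of scWAT and BAT but not of vehicle or Liver. Another downstream peak, 18.3 kb from the span and 5.43 kb from Olfm2, was listed in all but BAT, at 8.67 in vWAT with estradiol, 3.79 with vehicle, 4.63 in scWAT and 12.0 in Liver, the strongest Liver peak near any collagen gene. The 4 vWAT estradiol peaks inside Col5a3 (3.77 to 5.79) were all absent from vehicle.

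The genes of the major interstitial collagens had fewer vWAT estradiol peaks than Col5a1 and Col5a3, and their strongest peaks had lower enrichment. Col1a1, a chain of type I collagen, the main fibril protein of skin and bone, had 4 peaks in vWAT with estradiol, none in vehicle or BAT, 2 in scWAT and 1 in Liver. The 4 had enrichments of 3.29 to 4.96, and 1 of them lay inside the gene. Its 66.8 kb window makes that 5.99 peaks per 100 kb, above the 3.94 of Col5a1, and 6.48% of like-span genes had as many. Col1a2, the partner chain, had 2 peaks in vWAT with estradiol, 1 in vehicle and 2 in scWAT, and none in BAT or Liver. Both vWAT peaks lay upstream, 21.3 kb from the start (6.67-fold with estradiol, with a vehicle counterpart of 4.05) and 22.3 kb (4.30, absent from vehicle), and the nearest other protein-coding gene stood 117 kb from the first of them.

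Col3a1, whose product accompanies type I collagen in skin and vessel walls, had 3 peaks in vWAT with estradiol, 1 in vehicle, 4 in scWAT and 1 in Liver. These lay 11.5 kb upstream of the start (5.88), 4.31 kb inside the gene (3.43) and 6.47 kb beyond its end (5.76). The last was held with vehicle (4.17) and is also in reach of Col5a2, the type V chain gene that follows Col3a1 on chromosome 1. Col5a2 had 2 vWAT estradiol peaks, 1 vehicle, 3 scWAT and 1 Liver peak. Col24a1, a fibrillar chain of developing bone and cornea, had 5, 1, 4, 0 and 2 peaks in vWAT with estradiol, vehicle, scWAT, BAT and Liver. Its strongest, 229 kb from the start at chr3:145521566-145522106, had a 10.0-fold enrichment in vWAT and was the strongest scWAT peak near any collagen gene (11.7), with no vehicle counterpart.

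Col27a1 had 3 vWAT estradiol peaks of 3.72 to 4.13 and 2 Liver peaks, and none elsewhere. Col2a1, the gene of the main cartilage fibril, had 2 peaks in vWAT with estradiol, 1 in vehicle, 2 in scWAT and 1 in Liver, and 1 of the vWAT estradiol peaks lay within 1 kb of an end of Tmem106c. Col11a2, which encodes a minor chain of cartilage fibrils, had 1, 2, 1 and 1 in the same lists. Its single vWAT estradiol peak (11.1-fold, chr17:34030877-34031545) lay 7.65 kb outside the span at Slc39a7, a zinc transporter gene, and was held with vehicle at 4.73. Col11a1 had no peak in any list.

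The 6 type VI genes were all reached in vWAT with estradiol, beside 61.5% of all genes. They had 16 peaks there against 10.4 for like-span genes, and 1 peak with vehicle against 4.15. Liver had 4 peaks against 10.1 and BAT had none. Among them 15 of the 16 vWAT peaks were absent from vehicle. Col6a1, encoding the shared α1 chain, had 4 peaks in vWAT with estradiol and 2 in scWAT, and none in vehicle, BAT or Liver. All lay outside its 17.3 kb span, at 5.81 kb upstream (4.53-fold) and 4.47, 7.47 and 22.8 kb downstream (4.41, 3.59 and 5.19), and no other protein-coding gene stood in its window. That is 5.95 peaks per 100 kb, a count reached by 6.74% of like-span genes.

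Col6a3 encodes the α3 chain, whose cleaved end is the adipose-derived fragment endotrophin. It had 3 peaks in vWAT with estradiol, 3 in scWAT and none in the other lists. One of them, at chr1:90758093-90758806, was the strongest vWAT estradiol peak near any collagen gene, with a 14.5-fold enrichment that ranked 573 among 20715 peaks. It lay 8.39 kb beyond the downstream end of Col6a3 and 145 kb from the next protein-coding gene, Cops8, and its scWAT counterpart had 10.9. Col6a2 had 1 peak each in vWAT with estradiol (3.53), vehicle (3.89) and scWAT, 12.6 to 19.9 kb upstream of the start.

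The genes Col6a4, Col6a5 and Col6a6, which encode chains that can take the place of α3, lie side by side on chromosome 9. Col6a4 had 4 vWAT estradiol peaks (3.76 to 6.51) and 1 Liver peak, Col6a5 had 1 and 2, and Col6a6 had 3 and 1 with 1 more in scWAT. None of the 3 genes had a peak in the vehicle or BAT list. Col6a6 had a peak 2.17 kb before its start (7.56, with 5.49 in scWAT).

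The type IV genes lie in head-to-head pairs, so a peak between 2 of them counts for both. Their 20 distinct vWAT estradiol peaks gave a summed count of 22 over 6 genes, against 14.1 for like-span genes, and scWAT had 16 against 11.0. Col4a1 and Col4a2 encode the chains found in nearly every basement membrane. Col4a1 had 5 peaks in vWAT with estradiol, 6 in scWAT, 1 in Liver and none in vehicle or BAT, and Col4a2 had 5, 5, 1, 1 and 0 in vWAT with estradiol, scWAT, Liver, vehicle and BAT. All 10 vWAT estradiol peaks lay inside the genes, 27.2 to 80.0 kb from the start of the gene that held them, and all 10 overlapped a scWAT peak. The strongest of Col4a1 (10.6) lay at chr8:11285209-11285918 and that of Col4a2 (11.9) at chr8:11369463-11370032; neither was in the vehicle, BAT or Liver list. Among the 10 only the Col4a2 peak 80.0 kb from its start (3.67) was held with vehicle (3.91).

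Col4a3 and Col4a4 encode chains of the kidney's filtering membrane. Col4a4 had 7 peaks in vWAT with estradiol, 4 in scWAT, 1 each in BAT and Liver, and none in vehicle. The strongest (10.4-fold, chr1:82474140-82474839) lay 112 kb from its start inside the gene, and a peak of 9.51 lay 40.2 kb from the start, both shared with scWAT. As many peaks were found at 5.81% of like-span genes. Col4a3 had 4 in vWAT with estradiol (4.06 to 4.84), 2 of them within reach of Col4a4 as well, 1 in scWAT and 2 in Liver. At the X-linked pair Liver listed more peaks than vWAT with estradiol, most of them marginal. Col4a5 had no peak in vWAT with estradiol or scWAT, 1 in vehicle, 1 in BAT and 3 in Liver, and Col4a6 had 1 in vWAT with estradiol, 1 in vehicle and 4 in Liver. The vehicle peak and 1 Liver peak lie between the 2 genes and count for both.

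**Figure D3:**
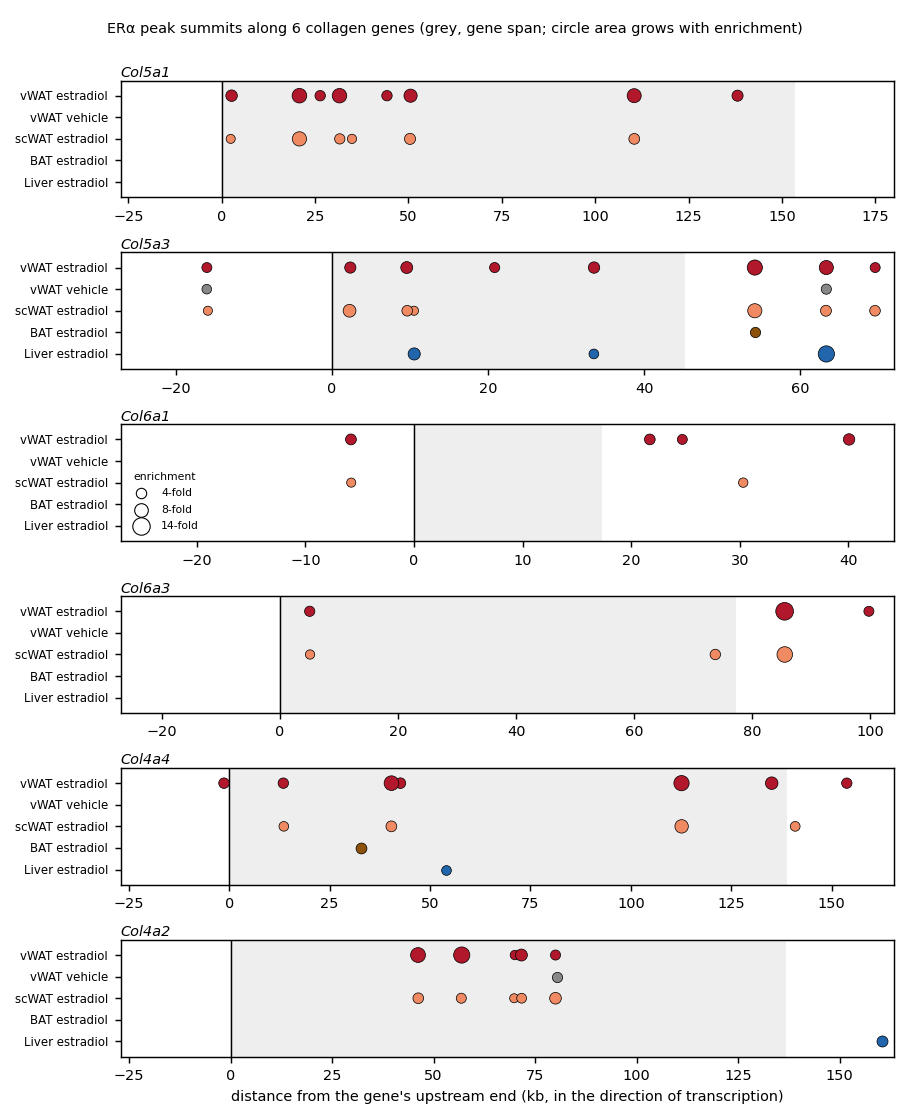
ERα peak summits along 6 collagen genes in the 5 lists. The x axis is the distance in kb from the upstream end of the gene, grey marks the span, each circle is a peak and its area grows with the authors' fold enrichment. Peaks of vWAT and scWAT with estradiol recur at the same places, such as 20.8 kb into Col5a1 and 85.5 kb from the start of Col6a3, while the vehicle, BAT and Liver rows are empty for Col5a1, Col6a1 and Col6a3.

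Fibril-associated collagens, which coat fibrils and have interrupted helices, did not share the surplus. In vWAT with estradiol 4 of the 9 genes were reached, beside 61.5% of all genes, by 11 peaks against 18.0 for like-span genes. The scWAT list reached 7 of them, beside 61.0% of all genes, by 17 peaks against 15.1. Col12a1, on the surface of type I fibrils, had 4 peaks in vWAT with estradiol (3.66 to 6.91, all inside the gene and absent from vehicle), 3 in scWAT, 1 in BAT and 2 in Liver. Col14a1, a related fibril coat, had 3 peaks in vWAT with estradiol, 4 in scWAT and 3 in Liver, and none of its vWAT peaks overlapped a scWAT peak. Col16a1 had 2 in vWAT with estradiol, 1 in vehicle, 4 in scWAT and 2 in Liver. Its peak 4.15 kb inside the start (3.96) was shared with scWAT, and the other, 8.20 kb away, lay at Pef1 and was held with vehicle.

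Col19a1 had 2 vWAT estradiol peaks, 116 and 209 kb from its start, both shared with scWAT, and 1 Liver peak. The 5 others had no vWAT estradiol peak. Col9a3, of cartilage, had 1 vehicle, 2 scWAT and 2 Liver peaks, all of them outside its span. Col20a1 had 1 peak each in scWAT and Liver, both at Arfgap1, and Col9a2 had 1 in scWAT. Col9a1 and Col22a1 had none in any list.

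The 3 short-chain network genes had peaks held across tissues, mostly at neighbouring genes. Col8a1, of vessel walls and the cornea, had 3 vWAT estradiol peaks, 1 each in vehicle, scWAT and BAT, and 2 in Liver. One of these, 17.2 kb beyond its end at the start of Cmss1, was present in all 5 lists, at 11.0 in vWAT with estradiol, 11.6 with vehicle, 8.54 in scWAT, 7.44 in BAT and 9.76 in Liver. It was the strongest vehicle peak and the strongest BAT peak near any collagen gene. Col8a2 had 2, 1, 1, 0 and 2 peaks in vWAT with estradiol, vehicle, scWAT, BAT and Liver, each within 1 kb of an end of Trappc3 or Adprhl2. Near Col10a1, of growth plate cartilage, 1 peak at Nt5dc1 was listed in all but BAT (7.72 in vWAT with estradiol, 5.17 with vehicle), and Liver had 1 more.

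Multiplexins lie beside basement membranes and release angiogenesis-inhibiting fragments. Col15a1 had 6 peaks in vWAT with estradiol, none in vehicle or BAT, and 2 each in scWAT and Liver. All 6 lay inside the gene with enrichments of 3.52 to 5.75, and 4.90% of like-span genes had as many. Those 31.4 and 85.9 kb from the start were found in scWAT and Liver too. Col18a1, the source of endostatin, had 2 in vWAT with estradiol, 2 in vehicle, 1 in scWAT and 4 in Liver, and its strongest Liver peak (7.71) lay at Slc19a1, 19.0 kb away.

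At the transmembrane collagens Liver listed more peaks, 11 over 4 genes where vWAT with estradiol had 3, against 9.07 and 9.59 for like-span genes. Most of these Liver peaks were marginal. Only those at Phykpl near Col23a1 (4.04) and 14.6 kb outside Col25a1 (2.37) reached a −log10 q-value of 2. The vWAT estradiol peaks all did (2.24, 3.70 and 15.3), so the order of the lists did not hold at that cut-off. Col25a1, a collagen of neurons and the longest member, had 7 peaks in Liver, 1 in vWAT with estradiol and 1 in BAT. The 6 Liver peaks inside it had enrichments of 3.15 to 3.33, below that list's median of 3.91, and 7.11% of like-span genes had as many Liver peaks. Col23a1 had 2 peaks in each vWAT list and in scWAT, both at neighbouring genes (Phykpl and Hnrnpab), and 3 in Liver. Col17a1, of epithelial attachment plaques, had 1 Liver peak, and Col13a1 none in any list.

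Of the last 3 genes, Col28a1 had the second strongest vWAT estradiol peak near any member (12.2-fold, chr6:8171490-8172324), 20.8 kb from its start and shared with scWAT (6.19). It had 2 vWAT estradiol peaks, and 1 each in vehicle, scWAT and Liver, and the vehicle peak lay elsewhere. Col7a1, of the anchoring fibrils under the epidermis, had 2 in vWAT with estradiol, 1 in scWAT and 2 in Liver, none inside the gene. Col26a1 had 1 each in vWAT with estradiol, scWAT and BAT, and 4 in Liver. In all, 4 collagen genes had no peak in any list, beside 20.0% of all genes. All genes have shorter spans (median 17.3 kb against 114 kb), and the share of like-span genes was not taken here. More peaks in vWAT with estradiol than in Liver were counted at 23 members (52.3%), beside 25.4% of all genes and 33.1% of like-span genes, and the reverse held at 11, beside 32.3% and 38.2%.

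The transcription starts of collagen genes were almost free of summits. A start was annotated for 35 of the 44 genes. In vWAT with estradiol none of the 35 had a summit within 1 kb, beside 27.1% of all genes with a start and 28.0% of like-span genes, which would give 9.79 genes. Nor did scWAT, beside 28.0% of all genes, or BAT, beside 10.6%. Vehicle had 1 (Col4a5), beside 22.8%, and Liver 3 (Col4a5, Col8a1 and Col23a1), beside 29.4%. The Liver peaks at Col8a1 and Col23a1 had an enrichment of 3.33 and were absent when a −log10 q-value of 2 was asked for. Within 5 kb, vWAT with estradiol had a summit at 7 of the 35 starts (Col3a1, Col4a4, Col5a1, Col5a3, Col6a3, Col6a6 and Col16a1), beside 34.0% of all genes. For scWAT it was 5, beside 34.6%.

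**Figure D4:**
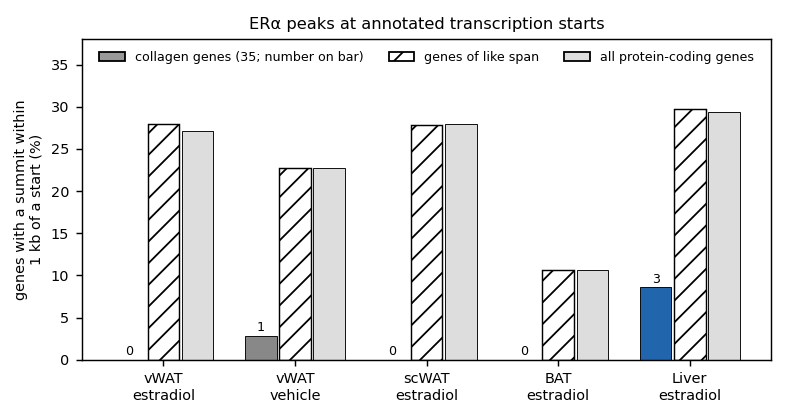
Share of genes with an ERα summit within 1 kb of an annotated start, for the 35 collagen genes that have one, for genes of like span and for all protein-coding genes, in each list; the number above a collagen bar is the number of genes. The collagen bar is 0 in vWAT with estradiol, scWAT and BAT, while the other bars stand between 10.6% and 29.8%.

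Of the vWAT estradiol peaks, 89 were in reach of a collagen gene with an annotated start, and their median distance to the nearest such start was 40.2 kb. The closest lay 1.51 kb from the start of Col4a4. Only 14 of the 106 peaks lay within 1 kb of any gene end (13.2%, 8.03 to 21.0). The share was 24.0% over the whole list and 30.7% over its peaks near any gene. Inside a collagen span lay 64 (60.4%, 50.9 to 69.2), against 64.6% of peaks near any gene that lay inside a gene. These shares were not matched by span. Of the 14, 1 was at an end of a collagen gene itself, the downstream end of Col23a1, which adjoins Phykpl. Divided into 3 equal parts from the start, the spans of the 35 genes with a start held 28, 14 and 11 of the vWAT peaks absent from vehicle. Of these 53 peaks, 52.8% lay in the part nearest the start, against 43.4% for 12001 other genes of the same range of span. That comparison was by range and not matched to the span of each member. For all vWAT estradiol peaks the shares were 51.9% and 51.7%, so no such difference was seen there.

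Promoter windows were searched on both strands for 5 motifs, and a match is a description of the letters alone. The table held 38 promoter windows of 300 bases for the 35 collagen genes and 21044 windows in all. The full ERα element, the half-site GGTCA followed after any 3 bases by its reverse complement, was found in none of the 38 and in 0.0523% of all windows. The half-site itself, which the full element contains, was found in 14 collagen windows (36.8%), against 39.5% of all. The GC box (GGGCGG) was found in 23 (60.5%, against 46.7%) and the CCAAT box in 13 (34.2%, against 38.5%). An AP-1 site (TGANTCA), the element of the Fos and Jun factors, was found in 1 window, that of Col6a1 (2.63%, against 7.04%). Sequences of the distal peaks, where nearly all summits lay, were not analysed here.

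A few stretches of DNA show where summits fell and where they did not. The sequences are RefSeq's for GRCm38.p6, the assembly of mm10, read 5′ to 3′ on the strand of the gene and ending before its annotated span. Capitals mark a match, on either strand, to the GC box, the CCAAT box, the AP-1 site or the full ERα element. Col4a5 (chrX:141475169-141475369, plus strand, bases -250 to -50 from the start) is a collagen promoter with a summit in 2 lists, at -57 in vehicle (6.28) and -81 in Liver (4.62). Cmss1 (chr16:57606868-57607117, minus strand, -250 to -1) holds the summits of all 5 lists at the peak near Col8a1, at -167 in vWAT with estradiol, -86 with vehicle, -122 in scWAT, -189 in BAT and -207 in Liver. Col1a2 (chr6:4505368-4505617, plus strand) and Col6a1 (chr10:76726045-76726294, minus strand) have no summit in any list within 1 kb of the start, and are shown as promoters of white fat matrix genes whose peaks lay farther out.
Col4a5: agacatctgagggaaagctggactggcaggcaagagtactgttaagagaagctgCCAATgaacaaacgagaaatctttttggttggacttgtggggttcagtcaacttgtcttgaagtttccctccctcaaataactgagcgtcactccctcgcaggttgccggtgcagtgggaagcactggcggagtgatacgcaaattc
Cmss1: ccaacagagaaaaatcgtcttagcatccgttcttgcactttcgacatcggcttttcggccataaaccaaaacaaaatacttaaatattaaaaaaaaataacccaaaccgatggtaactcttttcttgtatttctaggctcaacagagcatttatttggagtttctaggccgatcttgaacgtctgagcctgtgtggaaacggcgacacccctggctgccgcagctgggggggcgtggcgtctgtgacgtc
Col1a2: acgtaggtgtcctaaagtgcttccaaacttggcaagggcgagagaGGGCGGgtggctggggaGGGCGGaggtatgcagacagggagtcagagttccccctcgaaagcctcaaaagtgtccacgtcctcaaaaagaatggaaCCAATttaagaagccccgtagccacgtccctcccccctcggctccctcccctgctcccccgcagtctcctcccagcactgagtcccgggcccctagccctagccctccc
Col6a1: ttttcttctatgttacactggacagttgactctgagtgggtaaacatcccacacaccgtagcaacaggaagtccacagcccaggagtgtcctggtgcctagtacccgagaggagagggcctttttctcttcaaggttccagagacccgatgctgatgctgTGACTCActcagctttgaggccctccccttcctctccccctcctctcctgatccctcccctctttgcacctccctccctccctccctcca

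Across tissues the collagen peaks of vWAT with estradiol were shared mainly with the other white fat. Of the 106, 56 overlapped a scWAT peak (52.8%, 43.4 to 62.1), against 48.4% of the whole list. Overlap with Liver was found for 17 (16.0%, 10.3 to 24.2, against 22.8%) and with BAT for 2 (1.89%, 0.519 to 6.62, against 11.1%). The Liver overlaps lay largely at gene ends, with 10 of 17 there, and away from gene ends 7 of 92 collagen peaks were in Liver (7.61%), against 11.2% of such peaks near any gene. Read from the other side, 57 of 79 scWAT collagen peaks overlapped a vWAT estradiol peak (72.2%, 61.4 to 80.8), against 56.0% of the scWAT list. Held to equal length, 15 of 30 vWAT collagen peaks overlapped scWAT, a lower share than the 66.2% of the whole list, so the higher share with scWAT did not hold at equal size.

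**Figure D5:**
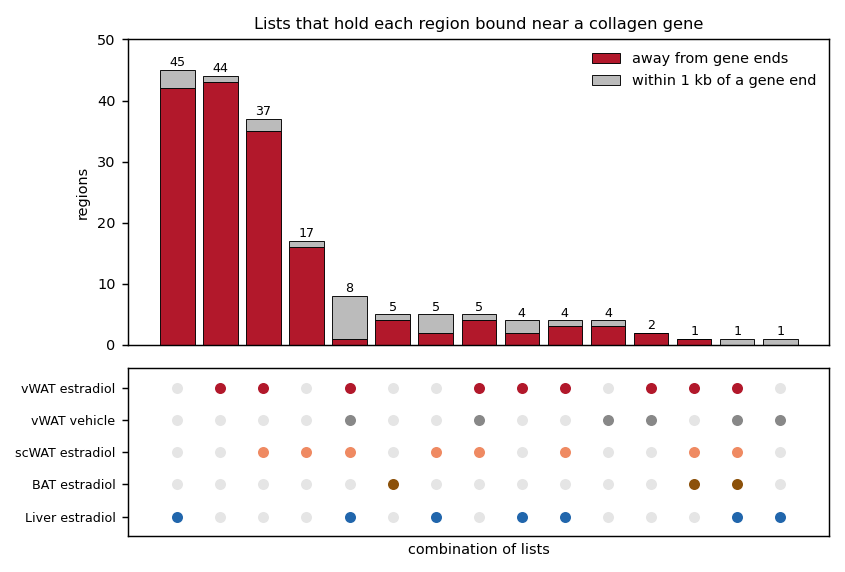
Regions near collagen genes by the combination of lists that hold them: bars give the number of regions, grey the part within 1 kb of a gene end, and filled dots below mark the lists of each combination. Regions found in Liver alone (45), vWAT with estradiol alone (44) and both white fats with estradiol (37) make up most of the 183 and lie away from gene ends, while 7 of the 8 regions shared by 4 lists lie at one.

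Merged over the 5 lists, the peaks gave 183 regions. Liver alone held 45, vWAT with estradiol alone 44, both white fats with estradiol 37 and scWAT alone 17. White fat with estradiol held 128 regions, of which 106 were not in Liver. Only 1 region was in all 5 lists, that at Cmss1, and 8 were in all but BAT, 7 of them at a gene end. A −log10 q-value of 2 or more was held by 38.2% of the Liver collagen peaks, against 46.4% of the whole Liver list, and by 92.5% of the vWAT estradiol collagen peaks, against 89.9%. The same shares were 94.9% against 88.0% in scWAT, 47.6% against 70.9% in vehicle and 28.6% against 33.5% in BAT.

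Genes that process collagen chains were counted in the same way. Of 20 enzymes and chaperones of the endoplasmic reticulum that hydroxylate, glycosylate and fold the chains, 18 had a vWAT estradiol peak, where like-span genes would give 13.6, with 43 peaks in sum against 28.8. The lysyl hydroxylase gene Plod2 had the strongest (15.4, also with vehicle), then the prolyl hydroxylase genes P4ha3 (11.9, absent from vehicle) and P4ha2 (11.7, also with vehicle). Unlike the collagen genes, these also stood above like-span genes in vehicle and BAT. Vehicle reached 14 of 20 members against 9.95, with 21 peaks against 14.9, and BAT reached 12 against 6.45. P3h4 and Fkbp10 lie side by side and had equal counts in every list. Of 13 proteases, enhancers and oxidases that trim and cross-link collagen outside the cell, 12 were reached against 9.05, with 40 peaks against 22.8. Adamts2, which cuts the end off procollagen, had 16 of these in vWAT with estradiol, 12 in scWAT and 2 in each other list, with a strongest of 14.6 held with vehicle. Pcolce, an enhancer of another procollagen protease, had a peak of 11.1 (also with vehicle). Loxl1, a cross-linking oxidase, had a peak of 9.73 (absent from vehicle).

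Collagen receptors stood near their background. Of 10 genes, 7 had a vWAT estradiol peak against 7.13 for like-span genes, with 19 peaks against 16.8. The discoidin receptor gene Ddr1 had the strongest (18.6, also with vehicle), then Ddr2 (9.18, also with vehicle) and Itga2 (9.01, absent from vehicle), an integrin chain gene with 7 of the 19 peaks.

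Markers of the cells that the tissues could hold were counted as a check of the labels, as genes with a peak and not as expression. In vWAT with estradiol 6 of 6 adipocyte markers had a peak, where like-span genes would give 3.91, as did 5 of 6 fibroblast and progenitor markers (4.05) and 5 of 6 mesothelial markers (3.85). Below their like-span values stood the endothelial markers with 3 of 6 (4.33), brown adipocyte with 3 (4.01), mammary epithelial with 2 (3.71) and hepatocyte with 1 (3.78). Fibroblast markers had 12 peaks in vWAT with estradiol (8.20 for like-span genes), 6 in scWAT (8.17), 4 in Liver (8.56), and none in vehicle (4.36) or BAT (2.28). Adipocyte markers had 16, 8, 6, 3 and 1 peaks in the same order of lists, against 7.77, 8.09, 8.33, 4.64 and 2.27 for like-span genes. Mesothelial markers had 11, 8, 5, 2 and 1, against 7.75, 7.97, 8.08, 4.36 and 2.19. The like-span values too were lowest in vehicle and BAT, the shortest lists. Hepatocyte markers had 10 peaks in Liver, against 7.93 for like-span genes, but these reached 3 of the 6, against 4.04; vWAT with estradiol and scWAT had 1 each and BAT none. In BAT 3 of 6 brown adipocyte markers were reached, against 2.07, by 4 peaks against 2.78. Which cells held the receptor at collagen genes was not tested.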

How the data were processed

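Groups were taken from the sample labels, and all libraries of a group point to 1 peak list. Per the submitters' processing notes, reads were handled on mm10 with tools that include BWA 0.7.12 and HOMER, whose roles the notes leave out. How peaks were called, against which control and at which cut-off, and whether libraries were pooled first is not given in the sources used here. For each peak the authors deposited a fold enrichment ratio, a −log10 p-value, a −log10 q-value, a summit and a score. Peaks on chromosomes 1 to 19 and X were used. Gene spans and promoter windows came from RefSeq tables of GRCm38.p6, which give no exons, so exonic and intronic positions were not assigned; coordinates count from 1. Of the 44 collagen genes 35 matched the promoter table. Peaks of 2 lists were shared when they overlapped by 1 bp. Like-span values were averaged over the genes within 1.2 times a member's span. Every collagen gene is named; values are fullest for up to 4 members per class with the most vWAT estradiol peaks, members with no peak and members with more peaks in another list. Positions are given for the strongest peak of the 10 members with the strongest vWAT estradiol peaks and of each other list. Of each processing or receptor list, the 3 genes with the strongest peak are named. Other genes, the start comparison and the sequences were chosen after values were seen. The members and lists were chosen with earlier results of these data known. Counting and overlap were tested on simulated data and run in Python 3.11.15 (pandas 2.3.3, numpy 2.4.6), with intervals from scipy 1.17.1 and plots from matplotlib 3.10.9.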

Additional observations from a re-analysis of the deposited data

How the results depend on the processing

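Of 165 alternatives, 112 gave a value close to that reported on the same side of its background, 35 moved it, and 18 turned its order against the background. The scWAT ratio to like-span genes fell below 1, at 0.929 within 5 kb and 0.987 without Col5a1 and Col5a3. Genes with a peak turned below like-span genes within 5 kb in vWAT with estradiol (25, or 56.8%, against 61.4%). In scWAT they did so inside the span (15, or 34.1%, against 44.7%) and within 5 kb (17, or 38.6%, against 57.7%). Within 100 kb, scWAT turned below too (37, or 84.1%, against 85.9%) and vehicle above (33, or 75.0%, against 68.9%). Of the median peaks per 100 kb against like-span genes, vWAT with estradiol turned below within 5 kb (0.789 against 1.02), scWAT inside the span (0 against 0.245) and within 5 kb (0 against 1.19), and vehicle above within 100 kb (0.425 against 0.381). The Liver median of 1.09, against 1.06, turned below inside the span (0.406), within 5 kb (0.389), within 100 kb (0.974), at a −log10 q-value of at least 2 (0) and without the 5 longest members (1.11 against 1.13). The share in Liver rose above the whole list within 100 kb (24.5% against 22.8%), and at equal length the share in scWAT fell below it (15 of 30 peaks, 50%, against 66.2%). Inside the span only, the genes with a peak were 23 in vWAT with estradiol and 4 in vehicle, the vWAT estradiol median per 100 kb was 0.537, the vehicle ratio 0.287, the share of vWAT estradiol peaks absent from vehicle 96.9% and the share in Liver 6.25%. Within 5 kb, 7 genes had a vehicle peak (15.9%, against 37.7% of like-span genes), with a vehicle ratio of 0.330. The shares there were 95.7% absent from vehicle and 8.70% in Liver. Within 100 kb, 24 genes had a BAT peak (54.5%, against 56.8% of like-span genes) and the BAT ratio was 0.748. At a −log10 q-value of at least 2, 10 genes had a vehicle peak (22.7%, against 38.1% of like-span genes). BAT had 2 (4.55%, against 14.6%) and Liver 20 (45.5%, against 56.4%). Of the vWAT estradiol peaks, 90.8% were then absent from vehicle, against 79.5% of the list so cut. For Liver 1 start was left, beside 23.4% of all genes. With every list held to 5193 peaks, 18, 10, 19 and 11 genes had a peak in vWAT with estradiol, vehicle, scWAT and Liver, the vWAT estradiol median was 0, the share in Liver 6.67% and the Liver starts 0. With sharing asked of summits within 100 bp, 92.5% were absent from vehicle, 38.7% in scWAT and 6.60% in Liver. Gene ends taken within 5 kb held 27.4% of peaks. Starts within 5 kb gave 7, 3, 5 and 5 of the 35 genes in vWAT with estradiol, vehicle, scWAT and Liver. The shares of all genes were 34.0%, 25.7%, 34.6% and 35.7% in the same order. Fewer bases or peaks are counted by construction in the narrower windows and shorter lists; for the other changes the cause was not tested. The alternatives without Col5a1 and Col5a3, those of the ratio, of the share in Liver and of the starts were added after seeing the data. No paired analysis was possible because each group has 1 peak list, and for the same reason no library could be left out. The read depth behind the lists is unknown, so a gene without a listed peak is one where none was detectable at that depth.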
